A study of Mus musculus with 2 samples.

Results

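Open chromatin was examined at 5 genes that encode muscle transcription factors of the MADS-box class: Mef2a, Mef2b, Mef2c and Mef2d, the 4 myocyte enhancer factors, and Srf, the serum response factor. They were taken by gene symbol from 21851 protein-coding genes of the mouse annotation, and each was followed over its gene body and 10 kb either side, 470.1 kb in all. The tissue was gastrocnemius, the large calf muscle, from male B6CASTF1/J mice aged 36 days, which are hybrids of a C57BL/6 and a CAST parent. DNase-seq, in which DNase I cuts accessible DNA of isolated nuclei, gave 1 library from each of 2 animals, called replicate 1 and replicate 2. The labels name no treatment, and both animals form the only group, so no comparison between groups exists and no p-value is given. The labels number the animals separately but list the same donor entry for both.

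MEF2 and SRF proteins share a DNA-binding domain, the MADS box, with which they bind as dimers to short AT-rich sequences. MEF2 factors bind the MEF2 site of many muscle genes and are held inactive by class II histone deacetylases until calcium signals release them. SRF binds the CArG box, of the form CC, a run of A or T, then GG, and works with myocardin-related factors, which sense actin, or with ternary complex factors of the ETS family, which respond to growth signals.

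The shorter of the deposited peak lists held 50760 peaks in replicate 1 and 49230 in replicate 2, and the longer lists 83409 and 83736. Each peak carries a signal value from the authors that stands for how densely DNase I cut there. The median of the shorter list was 1.76 in replicate 1 and 1.33 in replicate 2, so values were ranked within a library. The depth in reads is unknown. Values rose in fixed steps of 0.0123 and 0.00657, and if a step is 1 cleavage, replicate 2 was 1.88 times deeper. Nuclei of all cell types were pooled in the tissue, so a lower value can mean fewer cells with an open site or less opening in each cell, and these cannot be told apart. Of the muscle fibre markers, 8 of 12 had a promoter peak in both libraries (Mylpf 6.51 and 3.39, Ckm 6.45 and 3.37), as did 0 of 7 cardiac, 0 of 7 neuronal and 0 of 6 macrophage markers, and 1 of 6 B cell markers (Ebf1, 7.06 and 4.05). Of markers of the other resident cells, 2 of 8 satellite cell, 3 of 8 endothelial, 3 of 8 smooth muscle and pericyte and 4 of 6 fibro-adipogenic genes had one, and their part in the values below was not tested. The fast myosin genes Myh1 and Myh4 had no promoter peak in either library. Of all protein-coding genes, 54.2% had a promoter peak in both libraries, and no list was tested against that share.

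All 5 genes had a promoter peak in both libraries, that is, a peak of the shorter list within 500 bp of a start of a coding transcript. Across all protein-coding genes the share was 54.2%. Mef2b had the highest promoter value, 15.4 in replicate 1 and 8.92 in replicate 2, above or equal to 95.7% and 94.8% of the genes with a promoter peak in the same library. Its peak region lies within 500 bp of the starts of Borcs8 and Rfxank and ends before the Mef2b start, as described below. Mef2a had 11.2 and 7.81 (percentiles 84.3 and 90.1). Srf had 9.69 and 4.46 (77.3 and 59.6), and Mef2d had 8.43 and 5.47 (70.6 and 71.6). Mef2c stood at the other end, with 2.23 and 1.45 (18.5 and 14.9). The order Mef2b, Mef2a, then Srf and Mef2d, then Mef2c was the same in both libraries, except that Srf lay above Mef2d in replicate 1 and below it in replicate 2, so these 2 genes have no order that both animals share. The lowest of the other 4 genes, Mef2d in replicate 1 and Srf in replicate 2, was at over 3 times the Mef2c value in both libraries.

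**Figure D1:**
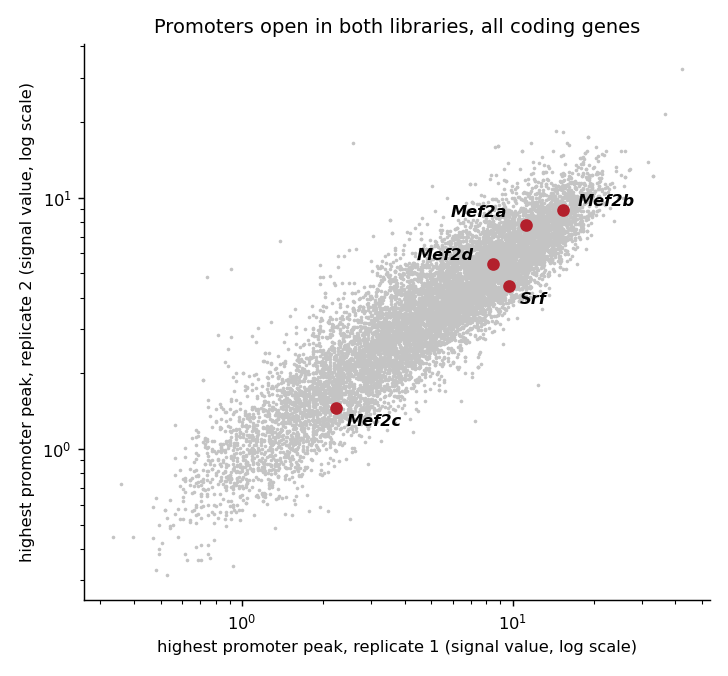
Highest promoter peak of every protein-coding gene open in both libraries, replicate 1 on the x axis and replicate 2 on the y axis (deposited signal value, both axes logarithmic); grey points are all such genes and red points the 5 factor genes. Mef2c (2.23 and 1.45) lies in the lower part of the cloud and the other 4 genes in the upper part.

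The annotation gives these genes several starts each, and most were closed. Starts of all transcripts were joined into clusters where they lay within 500 bp of each other, which gave 24 clusters. Of these, 9 had a shorter-list peak within 500 bp in both libraries, against 27.0% of the start clusters of all protein-coding genes. Mef2a, Mef2b and Srf each had 1 such cluster, of 5, 2 and 4. Mef2d had 2 of 3 and Mef2c had 4 of 10. With the window narrowed to 250 bp, 7 clusters remained, since the peaks of the second Mef2c cluster and the second Mef2d cluster lay farther from the start.

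**Figure D2:**
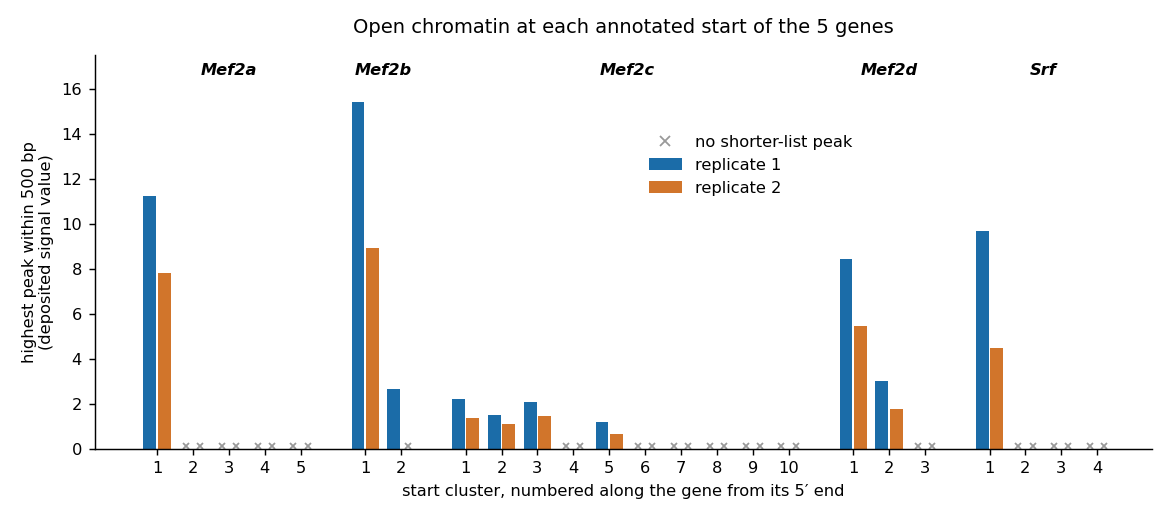
Highest shorter-list peak within 500 bp of each of the 24 start clusters (deposited signal value, linear axis from 0), with replicate 1 in blue and replicate 2 in orange; crosses mark clusters with no peak in that library. One cluster dominates in Mef2a, Mef2b and Srf, whereas Mef2c has 4 clusters that are all at 2.23 or below.

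Within the 5 spans, peaks of both libraries merged into 43 regions. Of these, 28 held a peak of each library and are called recurring here, and 51.2% of all merged regions of the genome did. They fell into 11 regions at starts of the 5 genes, 6 at starts of neighbouring genes, 8 in introns and 3 between genes. Mef2d had 9 recurring regions, Mef2c 8, Mef2a 4, Mef2b 4 and Srf 3. Of all protein-coding genes, 99.2% had fewer than 9 and 98.6% fewer than 8, with no allowance for gene length. Per 100 kb of span, Mef2d had 18.1 and Srf 10.8, against 8.37 at Mef2b, 4.37 at Mef2c and 2.47 at Mef2a. Values were higher in replicate 1 at 26 of the 28 regions (92.9%), as at 78.7% of recurring regions of the genome, with a median ratio of replicate 1 to replicate 2 of 1.46 against 1.36.

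**Figure D3:**
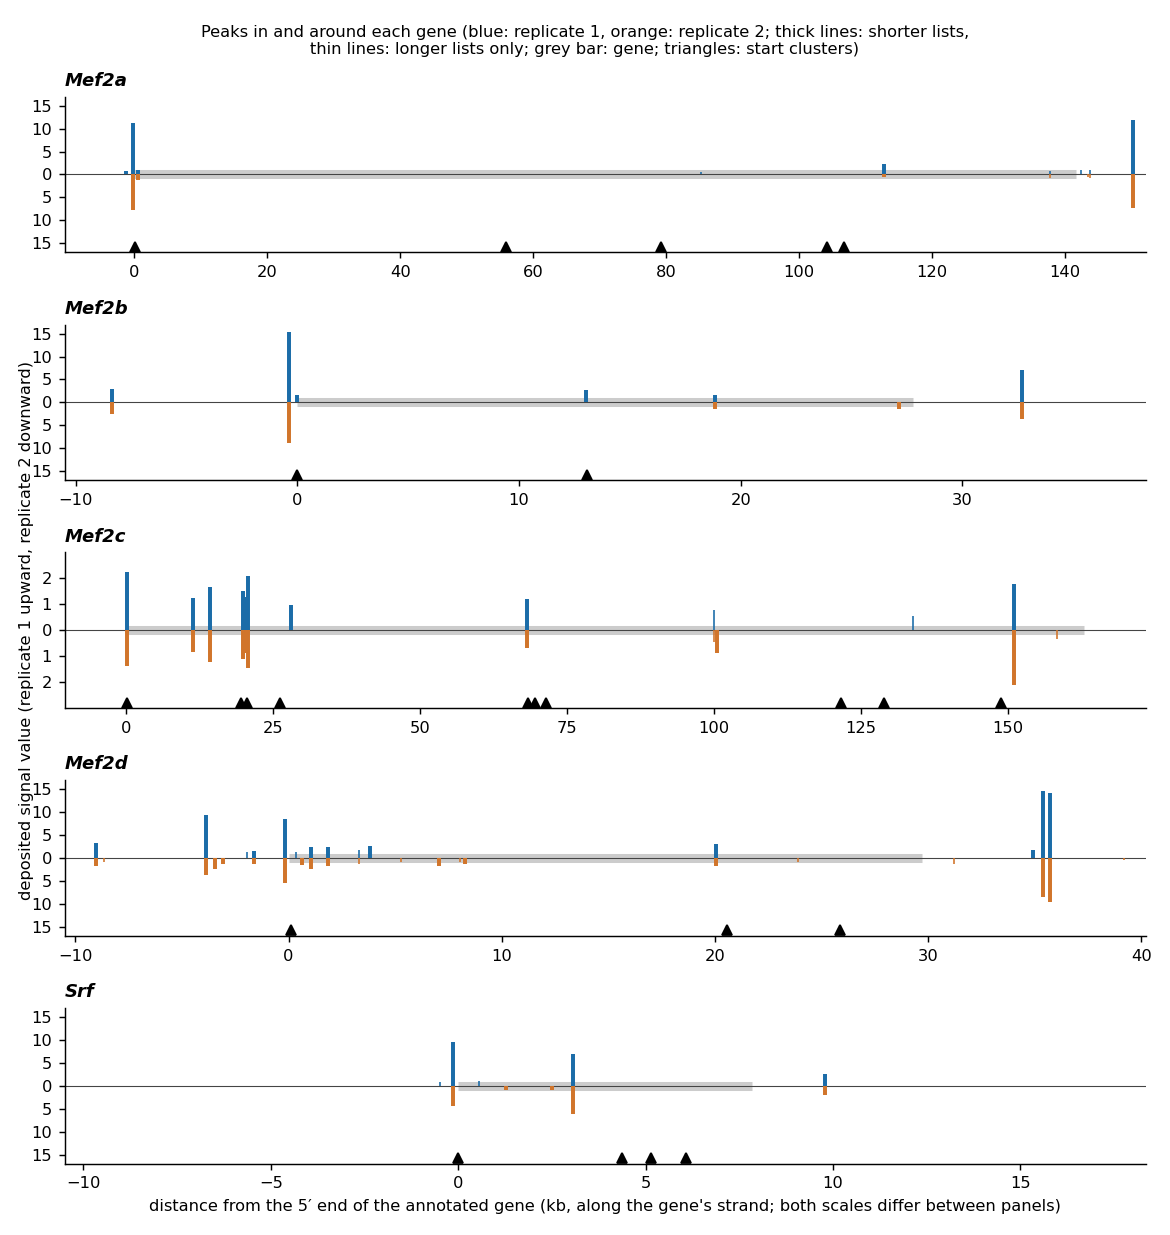
Peaks within each gene and 10 kb either side, placed by distance from the 5′ end of the annotated gene (kb, along its strand; scales differ between panels), with the signal value of replicate 1 drawn upward and of replicate 2 downward. Thick lines are shorter-list peaks, thin lines peaks of the longer lists alone, grey bars the genes and triangles the start clusters. The Srf panel shows an intron peak that is lower than its promoter in replicate 1 and higher in replicate 2. The Mef2d panel shows a peak upstream of its start.

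Srf, on chromosome 17 (46548329 to 46556175, minus strand), had 3 recurring regions: its promoter, an intron and the start of the neighbouring gene Cul9 (2.63 and 1.99). The promoter region (46556141 to 46556480) had 9.69 in replicate 1 and 4.46 in replicate 2. This ratio of 2.18 was higher than that of 92.0% of recurring regions. The intron region (46552861 to 46553380, intron 2) had 7.03 and 6.07, a ratio of 1.16. It was the lower of the pair in replicate 1 and the higher in replicate 2, and it lay above the median of the highest promoter peaks of all genes in both libraries (5.57 and 3.77). It lay 509 bp from the annotated start of the microRNA gene Mir6976 and so does not count as distal, and no coding start lay within 500 bp of it. The lowest q-values were 2.67e-51 and 3.36e-36 at the promoter and 4.61e-34 and 2.67e-48 in the intron. The 3 other annotated start clusters of Srf, inside the gene, had no peak of either list. Stretches of the promoter and the intron region are printed here because SRF is known to act through CArG boxes. The promoter holds 2 exact matches and the intron a single one. The sequences are those of the mm10 reference on the minus strand, that of the gene, chr17:46556176-46556295 (the 120 bases before the start) and chr17:46553251-46553372. Capitals mark, from the 5′ end, an ETS match (CCGGAAG), an SP/KLF match (GGGCGGG) and 2 CArG matches in the first sequence. In the second they mark a CArG match, an SP/KLF match on the other strand, a TEAD match (GGAATG, on the other strand), an E-box (CAGCTG) and an SP/KLF match.
Srf promoter: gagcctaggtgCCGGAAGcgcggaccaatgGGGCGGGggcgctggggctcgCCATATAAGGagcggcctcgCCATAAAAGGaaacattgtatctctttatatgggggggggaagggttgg
Srf intron 2: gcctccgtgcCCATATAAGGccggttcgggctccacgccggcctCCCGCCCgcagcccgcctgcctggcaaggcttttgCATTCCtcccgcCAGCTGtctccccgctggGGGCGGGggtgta

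The CArG pair of the Srf promoter lay 60 and 40 bp before the start, with 10 bases between the boxes. The letters of the first box of the promoter also stand in the intron. A further CArG match with 1 mismatch lay nearer the start (46556192 to 46556201). In 200 bp windows centred on all 15370 recurring regions at starts, searched on both strands, 0.703% held a CArG match. This share does not cover the intron match, which lies in no start region and outside the window of its own region. Only 3 windows (0.0195%) held 2 or more, Srf among them; this count was looked up after the pair had been seen. The deposited footprints, short stretches protected from cleavage inside open DNA, covered these boxes in part only; a match counts as in a footprint here when they share at least 1 base. In replicate 2 a footprint (46556224 to 46556234) touched the last base of the second box on the reference strand and filled the gap between both, and others covered the SP/KLF match (46556253 to 46556269) and the ETS match (46556272 to 46556299). In replicate 1 no footprint lay on any of these 4 matches. Across the genome, 27.0% of CArG matches in start windows lay in a replicate 1 footprint and 38.7% in a replicate 2 footprint. The 4 footprints of replicate 1 in the promoter region lay farther upstream, between 46556297 and 46556441, and each overlapped one of replicate 2. In the intron, the SP/KLF match nearest the 3′ end of the printed stretch (46553257 to 46553263) was wholly in a footprint of replicate 2 (46553253 to 46553272) and in part in one of replicate 1 (46553251 to 46553258), and the CArG, TEAD and E-box matches were in none. A match describes letters of the reference and not binding, and the CAST alleles of these animals may differ from it.

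**Figure D4:**
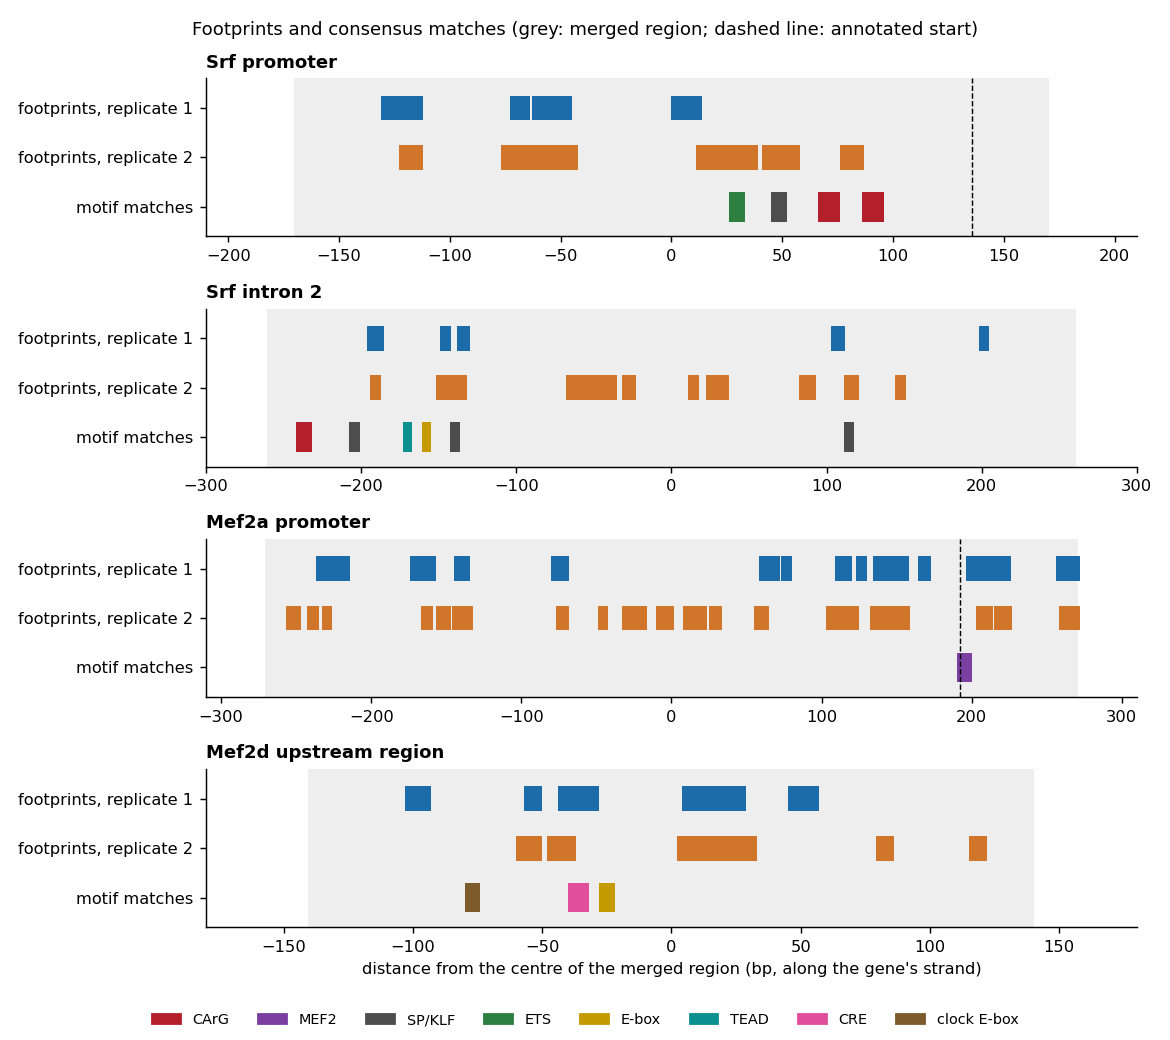
Deposited footprints of replicate 1 (blue) and replicate 2 (orange) and exact consensus matches (bottom row of each panel) in the Srf promoter, Srf intron 2, Mef2a promoter and Mef2d upstream regions, by distance from the centre of the merged region in bp along the gene's strand. Grey marks the region and the dashed line the annotated start; at the Srf promoter the CArG matches (red) lie beside, not under, the replicate 2 footprints apart from 1 base, and in the Mef2d region the CRE match (pink) lies under a footprint of replicate 1 and overlaps one of replicate 2 in part.

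Mef2a, on chromosome 7 (67231163 to 67372858, minus strand), had 1 strong start and little else. The peak at its most upstream start cluster (67372827 to 67372858), from which 7 of its 12 annotated transcripts begin, had 11.2 and 7.81. The other 4 clusters, from 55893 to 106696 bp farther into the gene, had no peak of either list, and no base there passed the 0.05 limit on the q-value in either animal. A weak region 287 bp from a start (67372261 to 67372540) had 0.9 in replicate 1 and 1.12 in replicate 2, and it was 79.3% G and C. The single distal region, that is, over 1 kb from every annotated start, lay in intron 7 (67259961 to 67260120), with 2.34 in replicate 1 and 0.664 in replicate 2. That ratio of 3.53 was higher than at 99.7% of recurring regions, so this site was far weaker in replicate 2 than the libraries' general difference, although footprints of both libraries lay in it. The shared start of Lysmd4 and 1700112J16Rik past the 3′ end had 11.98 and 7.28, above the Mef2a promoter in replicate 1 and below it in replicate 2. The promoter region (67372781 to 67373320) held 12 footprints in replicate 1 and 18 in replicate 2, the most of any region of the 5 genes, and 10 of the replicate 1 footprints overlapped one of replicate 2. An exact MEF2 match covers the start base itself. The stretch chr7:67372851-67372950 is shown on the minus strand with that match in capitals, to show how it lies over the first base of the transcript.
Mef2a start: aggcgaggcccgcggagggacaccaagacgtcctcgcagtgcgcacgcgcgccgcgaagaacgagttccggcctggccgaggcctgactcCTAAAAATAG

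The Mef2a match lay partly in a replicate 1 footprint (67372825 to 67372854) and in none of replicate 2. Of 41438 annotated starts of coding transcripts, 15 (0.0362%) had a MEF2 match over the start base, a count made after the Mef2a match was seen. In the 200 bp start windows 0.735% held a MEF2 match anywhere. The Mef2a match lay outside its own window, which is centred on a region of 540 bp.

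Mef2b, on chromosome 8 (70139711 to 70167488, plus strand), drew its high promoter value from a start that lies beside other genes. Its coding transcripts begin at 2 clusters. The distant one (70139711) has 1 transcript, and its peak region (70139161 to 70139500, 15.4 and 8.92) lies within 500 bp of the starts of Borcs8 and Rfxank. That region ends before the distant start. Over the start base itself, replicate 1 had a weaker peak of 1.55 (70139635 to 70139777). Replicate 2 had no shorter-list peak there, although all 143 bases passed the q-value limit of 0.05. The near one (70152778 to 70152781), 13067 bp downstream, is the start of the 4 other transcripts. There the peak had 2.64 in replicate 1 (70152621 to 70152820; percentile 22.8) and no shorter-list peak in replicate 2, where the longer list held one of 0.9003. In replicate 2, 158 bases around that start nevertheless passed the q-value limit of 0.05, with a lowest value of 8.54e-04. The near start was thus weak in both libraries, and the strong value belongs to a start region that Mef2b shares by position. Both are printed on the plus strand, chr8:70139239-70139348 and chr8:70152698-70152777 (the 80 bases before the near start), to show the matches that footprints of both libraries covered. Capitals mark NRF1 matches (GCATGCGC, 2 overlapping matches on opposite strands that form a palindrome) and SP/KLF matches.
Mef2b distant start: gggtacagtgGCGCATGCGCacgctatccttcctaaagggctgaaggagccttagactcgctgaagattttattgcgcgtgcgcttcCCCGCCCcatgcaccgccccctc
Mef2b near start: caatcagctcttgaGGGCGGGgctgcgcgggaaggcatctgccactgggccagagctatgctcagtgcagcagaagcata

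At the distant Mef2b start the NRF1 pair lay in footprints of both libraries (70139241 to 70139264 and 70139244 to 70139266), as did the SP/KLF match (70139308 to 70139337 and 70139309 to 70139348). At the near start the SP/KLF match, 60 bp before it, lay in part in a footprint of each library. NRF1 matches were present in 4.04% and SP/KLF matches in 39.4% of all start windows, and 84.8% and 54.2% of those matches lay in footprints of both libraries, so footprinted matches of these motifs are common at starts. The distal recurring region of Mef2b, in intron 1 (70158421 to 70158640), had 1.55 and 1.47, with 3 and 4 footprints, and 3 SP/KLF matches of which 2 were in footprints of both libraries. Starts of Nr2c2ap (2.91 and 2.50) and Tmem161a (7.11 and 3.61) made up the rest of its recurring regions.

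Mef2d, on chromosome 3 (88142372 to 88172086, plus strand), had the largest share of its span open among the 5 genes. Its promoter (88141941 to 88142480) had 8.43 and 5.47. Around it lay 3 recurring regions upstream and 2 in intron 1. The strongest of these, at 88138341 to 88138620 with its centre at -3891 bp from the start, had 9.41 in replicate 1 and 3.66 in replicate 2. In replicate 1 it exceeded the promoter, and in replicate 2 it did not. Its ratio of 2.57 was higher than at 97.3% of recurring regions. Next to it, replicate 2 had 2 further peaks (88138641 to 88139180, 2.47, and 88139181 to 88139420, 1.34) without a replicate 1 peak, although 332 and 38 of their bases passed the q-value limit of 0.05 in replicate 1. The other distal regions were at 88133246 to 88133460 (3.26 and 1.83), 88140681 to 88140800 (1.63 and 1.21) and 88144108 to 88144312 in intron 1 (2.38 and 1.64). An intron 1 region nearer the start (88143161 to 88143720) had 2.50 and 2.34. The second start cluster, at 88162960, has 1 transcript, outside the basic coding set. It counted as open through a merged region 414 bp away (3.03 and 1.76). The replicate 1 peak of that region ended farther from the start, at 88162500. Past the 3′ end, the strongest regions of the span were a pair at the start of 1700113A16Rik (14.7 and 8.56, then 14.2 and 9.62). The upstream region and the promoter are shown on the plus strand, chr3:88138391-88138468 and chr3:88142242-88142371 (the 130 bases before the start). Capitals in the first mark CACGTG, a CRE match (TGACGTCA) and an E-box (CAGCTG), and in the second 2 SP/KLF matches.
Mef2d upstream: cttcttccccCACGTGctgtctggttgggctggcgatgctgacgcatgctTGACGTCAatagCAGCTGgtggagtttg
Mef2d promoter: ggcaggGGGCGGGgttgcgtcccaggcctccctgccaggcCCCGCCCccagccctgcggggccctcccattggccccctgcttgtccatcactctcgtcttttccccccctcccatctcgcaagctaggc

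The CRE match of the Mef2d upstream region (88138441 to 88138448) lay wholly in a footprint of replicate 1 (88138437 to 88138452) and in part in one of replicate 2 (88138433 to 88138443), whereas the CACGTG and CAGCTG matches beside it lay in none. CRE is the element bound by CREB and ATF factors. It was present in 0.605% of the 15864 windows of distal recurring regions, and 66.7% of those matches were in footprints of both libraries. CAGCTG was present in 26.2% and CACGTG in 4.31% of distal windows. At the Mef2d promoter both SP/KLF matches lay in footprints of both libraries, the more distant one only in part in replicate 1. An exact MEF2 match (88140793 to 88140802) fell in the window of the upstream region at 88140681, outside footprints. It lay at the edge of that region, with its last 2 bases past the region's end.

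Mef2c, on chromosome 13 (83504034 to 83667080, plus strand), had many weak sites in place of a strong one. Of its 10 start clusters, 4 were open in both libraries. The most upstream (83504034 to 83504240) had 2.23 and 1.38, the second (83523473) had 1.504 and 1.09 from a peak 288 bp away, the third (83524291 to 83524920) had 2.10 and 1.45 and the fifth (83572348 to 83572381) had 1.20 and 0.677. Among the start clusters of the gene, the third, 20257 bp into it, thus had the highest value in replicate 2 and the first in replicate 1. If a step of the signal is 1 cleavage, the region of the first cluster reached 181 cleavages in replicate 1 and 210 in replicate 2, against 911 and 1188 at the Mef2a promoter. The sixth and seventh clusters (83573607 to 83573625 and 83575145 to 83575677), each the start of 2 basic coding transcripts, had no peak of either list, and no base there passed the q-value limit in either animal. The same was true of the 4 other clusters.

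In all, 3 distal recurring regions lay in introns of Mef2c. That of intron 9 (83654981 to 83655160) had 1.80 in replicate 1 and 2.10 in replicate 2, and its ratio of 0.859 was higher than at 12% of recurring regions. Of the 9 distal regions that recurred in the shorter lists, the other 8 were higher in replicate 1. Those of intron 1 (83518021 to 83518680 and 83515187 to 83515463) had 1.65 and 1.24, then 1.26 and 0.835. A weaker region in intron 4 (83603884 to 83604165), found in the longer lists alone with 0.764 and 0.447, held 2 exact MEF2 matches. These regions are printed on the plus strand, chr13:83655063-83655113 for intron 9, with a CTCF and an AP-1 (TGANTCA) match in capitals, and chr13:83603965-83604016 for intron 4, with the MEF2 matches in capitals.
Mef2c intron 9: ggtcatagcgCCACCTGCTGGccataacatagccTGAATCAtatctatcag
Mef2c intron 4: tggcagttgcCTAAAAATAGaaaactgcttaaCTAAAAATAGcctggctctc

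CTCF is the insulator protein that anchors chromatin loops. The CTCF match of Mef2c intron 9 lay in a wide footprint of each library (83655060 to 83655089 and 83655057 to 83655089), and the AP-1 match in none. CTCF matches were present in 15.9% of distal windows, and 90.8% of these matches were in footprints of both libraries. The MEF2 matches of intron 4 had the same 10 letters as each other and as the match at the Mef2a start, with 12 bases between them. No footprint lay on either. Among 30517 distal recurring regions of the longer lists, 566 windows (1.85%) held a MEF2 match and 17 (0.0557%) held 2 or more, counts that were made after the pair had been seen. At the second start cluster of Mef2c, an SP/KLF match (83523772 to 83523778) lay in footprints of both libraries.

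Distal regions, over 1 kb from every annotated start, numbered 9 in all: 4 at Mef2d, 3 at Mef2c, 1 at Mef2a, 1 at Mef2b and 0 at Srf. Fewer than 4 were found at 97.0% of protein-coding genes and fewer than 3 at 93.9%, with no allowance for gene length. For comparison, the 4 Tead factor genes, which also act in muscle, had a median of 2.5 and at most 7 (Tead1), and the 4 nuclear factor I genes a median of 11 and at most 13 (Nfib). Promoter values were 8.25 and 6.09 at Tead1, 2.95 and 2.43 at Tead3 and 3.65 and 1.99 at Tead4. They were 3.88 and 2.37 at Nfix, 2.37 and 3.98 at Nfib and 1.91 and 1.70 at Nfia. Tead2 and Nfic had a promoter peak in 1 library each. These counts are a description, also without allowance for gene length, and no difference between the families was tested.

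The 15 regions with a peak of 1 library were mostly not empty in the other. Of 6 with a replicate 1 peak, all 6 had bases within the q-value limit of 0.05 in replicate 2, and of 9 with a replicate 2 peak, 6 had such bases in replicate 1. The remaining 3 were at Srf (46554861 to 46554940 and 46553621 to 46553700) and in the first intron of Mef2d (88142961 to 88143056). Over all spans, 16395 bases in replicate 1 and 22343 in replicate 2 were within that limit, and 15136 were the same bases. Mef2d had 10.6% of its span covered in replicate 1 and 16.1% in replicate 2. This was more than at 99.0% and 97.7% of protein-coding genes, with no allowance for gene length or for starts of neighbouring genes within the span. Srf followed with 7.29% and 13.7%, Mef2b had 4.57% and 6.54%, and Mef2a (2.02% and 1.90%) and Mef2c (1.98% and 2.35%) were near the middle of all genes. Outside every peak of the longer lists, such bases were few, 87 in replicate 1 and 178 in replicate 2.

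Footprints in the spans numbered 125 in replicate 1 and 193 in replicate 2. In the 28 recurring regions there were 87 and 127, or 3.11 and 4.54 for each region, against 3.02 and 4.19 over all recurring regions. Of these, 72.4% of the replicate 1 footprints and 48.8% of the replicate 2 footprints overlapped one of the other library, beside 69.2% and 47.5% genome-wide. The factor genes were therefore close to the genome in footprint density and in sharing. Over the whole spans, 17 of 26 replicate 1 footprints were shared at Mef2a, 14 of 19 at Mef2b and 28 of 46 at Mef2d. At Srf 8 of 13 were shared and at Mef2c 10 of 21. The share over all replicate 1 footprints of the genome, inside and outside peaks, was 52.2%.

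Base composition also varied among the promoters. The promoter region of Mef2a was 65.0% G and C with 9.26 CpG dinucleotides per 100 bp, and that of Mef2c's first cluster 51.7% with 2.50. Those of Mef2d (64.8%, 6.67), Srf (60%, 6.47) and the shared start at Mef2b (54.1%, 5.88) lay between. The region of the third Mef2c cluster, which gave the promoter value of that gene in replicate 2, was 60.2% G and C with 7.05, above Srf and Mef2b in both measures. These values are for whole regions. Start windows of the genome, which are 200 bp wide, had medians of 65.5% G and C and 17 CpG dinucleotides per window.

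The matches of 17 consensus motifs were counted in the recurring regions of the 5 genes. SP/KLF, the GC-rich element of many promoters, was the most frequent, with 20 matches in 11 of 28 regions, of which 14 were in footprints of both libraries. In the 200 bp windows, 8 of 17 regions at starts (their own or a neighbour's) held it, beside 39.4% of all start windows. CArG matches were in 2 of these 17 windows, at Srf and at the start of 1700113A16Rik beside Mef2d, and MEF2 matches in 0 of 17. Of 9 distal windows, 1 held a MEF2 match and 0 a CArG match, beside 1.62% and 0.939% of all distal windows. The other 2 recurring regions, among them Srf intron 2, belong to neither set of windows. For the E-box CAGCTG, the element of the MyoD family, the counts were 0 of 17 and 2 of 9, beside 13% and 26.2%. In 300 bp windows 2 of the 17 start regions held it, beside 18.5% of all start windows. None of the 28 regions held a match for nuclear factor I, the glucocorticoid receptor, ERR (TCAAGGTCA), MEF3 (TCAGGTTTC) or YY1 (ATGGCGG). These matches were also rare in the 200 bp windows of the genome. YY1 was in 6.45% of start and 1.03% of distal windows, and each of the others in at most 0.492% of either set.

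Genes that work with these factors were examined from lists of partners, regulators and targets. Of 20 cofactors and regulators of MEF2, 15 had a promoter peak in both libraries, led by the calcineurin subunit gene Ppp3ca (20.6 and 12.6), the methyltransferase gene Carm1 (19.2 and 11.2) and the class II deacetylase gene Hdac4 (18.1 and 10.46). The deacetylase gene Hdac9 and the anchoring protein gene Akap6 had none. Of 10 SRF cofactors 5 had one. Mrtfa, which carries actin signals to SRF, had 16.99 and 8.04, Elk4, a ternary complex factor, 7.15 and 4.37, and Mrtfb 4.59 and 4.78. Gata4 and Myocd, cofactors of heart and smooth muscle, had none. All 15 SRF target genes had a promoter peak in both libraries, among them Egr1 (13.8 and 9.32), the vinculin gene Vcl (17.9 and 8.22) and the tropomyosin gene Tpm1 (14.6 and 7.35), whereas 6 of 14 MEF2 target genes did. The highest of the latter were Jun (16.9 and 11.5), Nr4a1 (10.7 and 4.79) and Slc2a4, the insulin-responsive glucose transporter gene (8.29 and 4.53), and the small heat shock protein gene Hspb7 and the myoglobin gene Mb had none. The background for each list is the 54.2% of all protein-coding genes, and no list was tested against it.

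**Figure D5:**
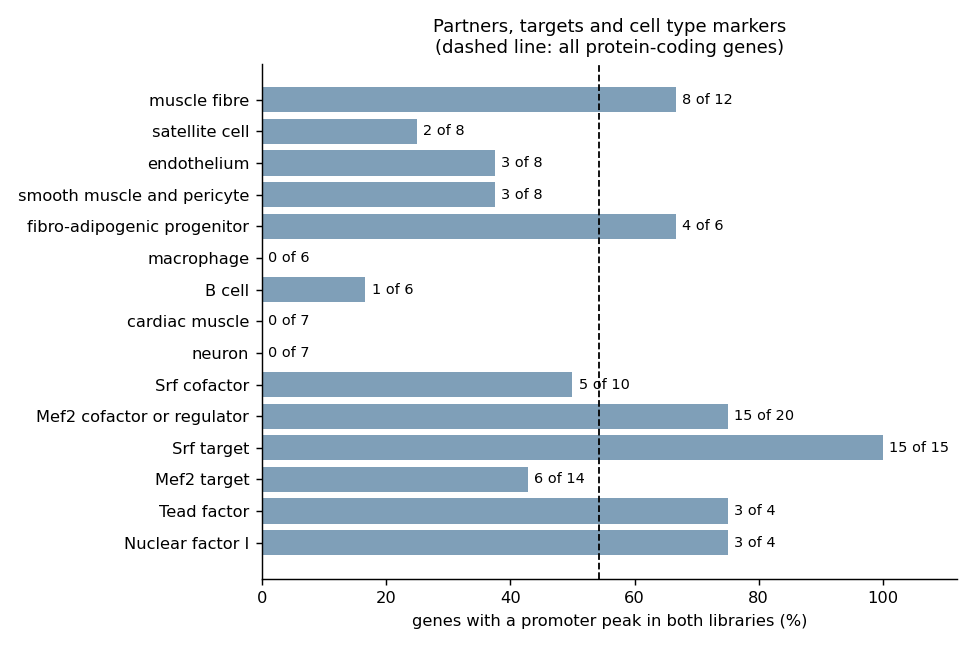
Share of genes with a shorter-list promoter peak in both libraries (percent, x axis) in each list of markers, partners and targets (y axis), with counts beside the bars and the 54.2% of all protein-coding genes as a dashed line. SRF targets (15 of 15) and MEF2 cofactors or regulators (15 of 20) lie above that line and MEF2 targets (6 of 14) below it.

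The gene most like each factor gene was found among protein-coding genes of similar length, by the mean difference of 4 percentile ranks, the promoter value and the number of peaks in the span in each library. For Mef2a it was Cryl1 (1.49 percentile points; promoter 13.3 and 7.18), for Mef2b Nampt (0.287 points; 16.1 and 8.58) and for Mef2c Hmcn2 (0.971 points; 2.10 and 1.43). For Mef2d it was Frmd8 (1.67 points; 7.08 and 5.43) and for Srf Zfp213 (1.67 points; 8.73 and 5.01). Each likeness rests on 2 libraries and is the closest of 793 to 2677 candidate genes. Peak numbers were the same within the pairs of Mef2a, Mef2b and Srf. The span of Hmcn2 held 18 peaks in replicate 1 and 9 in replicate 2, against 10 and 10 at Mef2c. That of Frmd8 held 9 and 14, against 11 and 14 at Mef2d.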

How the data were processed

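DNase-seq was measured in 2 gastrocnemius libraries, which form 1 group. The deposited peak lists carry the authors' signal value (height of cleavage density, scaling not stated), the deposited footprint lists a constant score of 0.01, which left their positions, and the deposited false discovery rate tables a q-value per run of bases. Files use mm10, per the labels; the tools used and the treatment of CAST reads were not stated in the labels or files used. The 2 peak lists of a library were told apart by length. Peaks, footprints and runs were joined to GENCODE M21 and GRCm38.p6 (RefSeq sequence) with Python 3.11.15, numpy 2.4.6 and pandas 2.3.3. Peaks that shared 1 bp were merged. Chromosome M was left out. Motifs were searched on both strands. The code was tested on simulated data. The genes and lists were chosen with earlier results of these data known. Named in the text were all 5 genes with every start cluster, up to 4 distal regions each, up to 3 list genes with the highest lower-of-both percentile and up to 2 without a promoter peak. Regions and matches beyond that rule were chosen after their values were seen. All 135 list entries matched a gene. Alternatives covered windows, lists, overlap, flanks, q limits and each library alone.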

Additional observations from a re-analysis of the deposited data

How the results depend on the processing

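Of 37 alternatives to the counts over the 5 genes together, 28 stayed within 1.5 times the count reported. All 5 promoters were open in both libraries under each alternative that used both, and in each library taken alone. With the 250 bp window, however, the 15.4 peak of replicate 1 at Mef2b (70139161 to 70139420) lay too far from the start. That library then counted through weaker peaks, 1.55 over the distant start and 2.64 at the near one. Open start clusters ranged from 7 (250 bp window) to 10 (longer lists). Recurring regions fell from 28 to 18 with a reciprocal overlap of 50% and to 18 without the flanks, and were 22 when starts of other genes were left out, an alternative chosen after seeing the data. Distal recurring regions rose from 9 to 21 with the longer lists and to 16 with flanks of 50 kb. Bases that passed the q-value limit in both libraries went from 15136 at 0.05 to 9042 at 0.001. Windows with an exact CArG or MEF2 match went from 3 to 11 with 1 mismatch allowed. Leaving out each library in turn gave 9 to 10 open start clusters, 34 to 37 regions, 12 to 15 distal regions, 125 to 193 footprints (77 of replicate 1 shared) and 16395 to 22343 bases. A region without a peak is closed at the authors' threshold only, at a depth that is unknown. No paired analysis was possible because there is a single group.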
